A study of Arabidopsis thaliana with 9 samples.

Results

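The fasciclin-like arabinogalactan proteins (FLAs) described here are the products of 10 *Arabidopsis thaliana* genes named as a list of gene codes, a list drawn up with earlier results of these data known: *FLA1* (AT5G55730), *FLA2* (AT4G12730), *FLA4* (AT3G46550), *FLA7* (AT2G04780), *FLA8* (AT2G45470), *FLA9* (AT1G03870), *FLA10* (AT3G60900), *FLA11* (AT5G03170), *FLA12* (AT5G60490) and *FLA13* (AT5G44130). All 10 carried values and all 10 passed the filter on low values (at least 0.908 counts per 1000000 counts, CPM, in all libraries of a genotype), out of 25717 genes with values and 19454 genes that passed. RNA was sequenced from whole, intact 7-day-old seedlings grown under 8 h of light and 16 h of dark at 20 °C. The genotypes were *exg1-1* (a T-DNA insertion line of *EXG1*, which the sample labels spell *evg1*), *rlp44-3* (a T-DNA insertion line of *RLP44*, the gene of a receptor-like protein of the plasma membrane) and the wild-type accession Col-0, with 3 libraries each, and each mutant genotype is represented by 1 insertion allele only. *EXG1* encodes a cell wall protein of the DUF642 family. All seedlings were untreated, and both mutants carry the Col-0 background, so the same Col-0 libraries serve as reference for both comparisons.

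FLAs are secreted proteins that combine fasciclin domains, folds known from cell adhesion proteins of animals, with stretches rich in proline, alanine, serine and threonine that carry arabinogalactan sugar chains. Many of them are tied to the outer face of the plasma membrane by a lipid anchor, which places them between membrane and cell wall. The family is known for roles in cell expansion, root growth under salt, cellulose deposition and the mechanics of the secondary wall.

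Although labelled as counts, the table holds fitted values. None of the values in the 9 columns used was whole (tolerance 1e-06), and within a genotype the 3 libraries kept the same proportion to each other in every gene, with a largest relative deviation of 9.55e-15. Each gene therefore has 1 value per genotype, the spread between seedling samples cannot be recovered, and no test between genotypes was possible. Differences are given as log2 fold changes between genotypes with a 95% interval that covers counting error only (an exact binomial interval on the reads summed over the 3 libraries). Whether they exceed the spread between replicates was not tested. Library totals ran between 10396228 and 12971468 fitted reads in *exg1-1*, between 11015026 and 11535985 in *rlp44-3* and between 8364383 and 9606982 in Col-0. *EXG1* stood at 33.8 CPM in *exg1-1*, 93.6 in *rlp44-3* and 103 in Col-0, so reads of the targeted gene persisted in its mutant. *RLP44* summed to 1.08 fitted reads in *rlp44-3*, against 105 in *exg1-1* and 102 in Col-0.

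Some of the 10 genes form pairs by sequence, while *FLA4* (at most 37.0% identity, to *FLA10*) and *FLA7* (at most 40.6%, to *FLA12*) stand outside them. In the RefSeq annotation of TAIR10.1, *FLA8* and *FLA10* encode proteins of 420 and 422 residues that are identical at 353 of 414 aligned residues (85.3%). *FLA9* and *FLA13*, at 247 residues each, are identical at 194 of 244 (79.5%). *FLA11* and *FLA12* share 56.9% of aligned residues, and *FLA1* and *FLA2* share 52.4%. *FLA1*, *FLA2*, *FLA4*, *FLA8* and *FLA10* encode longer proteins of 403 to 424 residues, and *FLA7*, *FLA9*, *FLA11*, *FLA12* and *FLA13* encode shorter ones of 246 to 254 residues, as background the forms with a pair of fasciclin domains and with a single one. In the transcript with the longest coding sequence, every gene has 1 exon except *FLA1*, which has 2. *FLA1* and *FLA7* have 2 annotated transcripts each. The dipeptides AP, PA, SP, TP and VP, typical of the sites where arabinogalactan is added, were most frequent in FLA7 (8.66 per 100 residues), FLA10 (7.58) and FLA8 (7.38), and least frequent in FLA2 (2.23). The longest run of bases shared by the transcripts of a pair was 53 for *FLA8* and *FLA10* and 27 for *FLA9* and *FLA13*. A read that matches both genes of a pair without mismatch would have to lie wholly within a shared run. Reads aligned with mismatches were not examined.

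The 250 bases upstream of the annotated start are printed for 4 genes, which were chosen by their values. They are the pair *FLA13* and *FLA9*, the members furthest above Col-0 in *exg1-1*, and the pair *FLA8* and *FLA10*, whose values lay on opposite sides of Col-0 there. Any relation between these bases and the values was not tested. Each is read 5′ to 3′ on the strand of its gene, from chr5:17760615-17760864 (plus strand), chr1:983545-983794 (minus strand), chr2:18744323-18744572 (minus strand) and chr3:22501240-22501489 (minus strand) of TAIR10.1. Capitals mark matches to the motifs searched, which were ACCAACC in *FLA13* and *FLA9*, TATAAA in *FLA8*, and overlapping matches to TATAAA on both strands in *FLA10*.
FLA13: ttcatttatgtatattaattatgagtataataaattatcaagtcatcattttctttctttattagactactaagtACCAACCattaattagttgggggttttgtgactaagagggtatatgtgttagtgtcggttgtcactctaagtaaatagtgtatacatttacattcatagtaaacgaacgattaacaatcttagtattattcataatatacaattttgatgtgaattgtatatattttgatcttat
FLA9: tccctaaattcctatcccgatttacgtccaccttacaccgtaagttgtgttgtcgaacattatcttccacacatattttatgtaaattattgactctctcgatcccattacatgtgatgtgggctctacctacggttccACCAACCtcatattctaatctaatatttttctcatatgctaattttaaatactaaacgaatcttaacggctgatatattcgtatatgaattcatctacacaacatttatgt
FLA8: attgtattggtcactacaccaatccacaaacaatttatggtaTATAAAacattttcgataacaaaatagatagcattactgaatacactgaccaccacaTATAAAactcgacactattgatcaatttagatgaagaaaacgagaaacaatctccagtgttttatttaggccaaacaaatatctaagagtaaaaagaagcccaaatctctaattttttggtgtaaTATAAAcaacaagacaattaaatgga
FLA10: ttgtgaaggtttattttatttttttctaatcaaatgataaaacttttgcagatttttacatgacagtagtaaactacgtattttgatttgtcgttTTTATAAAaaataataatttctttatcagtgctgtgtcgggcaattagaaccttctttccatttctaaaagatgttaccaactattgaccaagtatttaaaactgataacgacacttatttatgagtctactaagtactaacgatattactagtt

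The motifs were searched on both strands. ACCAACC, a form of the AC element that MYB factors bind at genes of lignin synthesis, was found upstream of *FLA9* (first base at -111 from the start) and *FLA13* (first base at -175) among the 10 genes, and in 2.7% of 27443 promoters of the same length. Of the other forms of that element, ACCTACC matched none of the 10 and stands in 1.2% of promoters, and likewise ACCTAAC matched none and stands in 2.5%. TATAAA, the core of the TATA box, was found upstream of *FLA2*, *FLA7*, *FLA8* and *FLA10* and in 47.4% of promoters. Upstream of *FLA8* it began at -208, -151 and -26. The G-box CACGTG matched none of the 10 and stands in 6.5% of promoters, and its inner part ACGTG matched none and stands in 22.9%. Of the motifs known for the brassinosteroid-regulated factor BZR1, CGTGTG matched none of the 10 and stands in 5.4% of promoters, and CGTGCG matched none and stands in 1.6%. These matches describe letters only.

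*FLA13* and *FLA9* had the largest positive differences of the 10 genes in each mutant, and in both genes the order was *exg1-1* above *rlp44-3* above Col-0. The same order held for *FLA2* and *FLA8*, and for *FLA18* outside the 10. *FLA4* also stood in this order, but its log2 difference between the mutants was 0.04, with an interval that includes 0 (-0.09 to 0.17). The sign of that difference changed under upper quartile and library total scaling. How many of all genes stood in this order was not counted. *FLA13* had 1032, 1253 and 1288 fitted reads in the *exg1-1* libraries, 884, 873 and 914 in the *rlp44-3* libraries, and 609, 541 and 621 in the Col-0 libraries. On the scaled level this was 103 CPM in *exg1-1*, 78.7 in *rlp44-3* and 64.7 in Col-0. The fitted reads per library are not scaled, and within a genotype they differ only by library size and carry no biological spread. The log2 fold change of *FLA13* over Col-0 was 0.67 in *exg1-1* (95% counting interval 0.59 to 0.75), a fold of 1.59, and 97.7% of the genes that passed the filter lay below it. In *rlp44-3* it was 0.28 (0.20 to 0.37), above 92.4% of genes.

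*FLA9* had 2396, 2909 and 2989 fitted reads in the *exg1-1* libraries, 2230, 2201 and 2305 in the *rlp44-3* libraries, and 1628, 1446 and 1661 in the Col-0 libraries. The scaled levels were 239 CPM in *exg1-1*, 198 in *rlp44-3* and 173 in Col-0. Its log2 fold change over Col-0 was 0.46 in *exg1-1* (0.41 to 0.52), above 95.2% of genes, and 0.20 in *rlp44-3* (0.14 to 0.25), above 87.5% of genes. Set against each other, the mutants differed by 0.39 in *FLA13* (0.31 to 0.46) and by 0.27 in *FLA9* (0.22 to 0.31), with *exg1-1* higher in both. Per kilobase of transcript, *FLA9* exceeded *FLA13* in every genotype, by a ratio of 2.44 in *exg1-1*, 2.65 in *rlp44-3* and 2.81 in Col-0.

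Both genes have a cruciferin gene, coding for a seed storage protein, as their upstream neighbour. *CRA1* (AT5G44120) lies 2528 bases from *FLA13* and *CRU2* (AT1G03880) 2206 bases from *FLA9*, each on the strand opposite to its *FLA* neighbour. *CRA1* summed to 19.0 fitted reads in *exg1-1*, 13.2 in *rlp44-3* and 132 in Col-0. *CRU2* summed to 1.08 in *exg1-1*, 0.552 in *rlp44-3* and 19.0 in Col-0, and it was below the filter in every genotype. The lowest sum of any gene in Col-0 was 0.553 fitted reads, so the mutant values of *CRU2* lie at or near the floor. Both neighbours had fewer reads in both mutants than in Col-0. Since *CRA1* passed the filter through Col-0 only, their direction is not set against that of *FLA13* and *FLA9*. The summed level of 7 seed marker genes was 7.16 CPM in *exg1-1*, 4.04 in *rlp44-3* and 24.3 in Col-0. *PER1*, the seed marker that passed the filter in every genotype, stood at 4.36 CPM in *exg1-1*, 2.89 in *rlp44-3* and 9.65 in Col-0, while *CRA1*, *CRC* and *OLEO1* passed it through Col-0 only. The part of these markers in the *FLA* values was not tested.

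**Figure D1:**
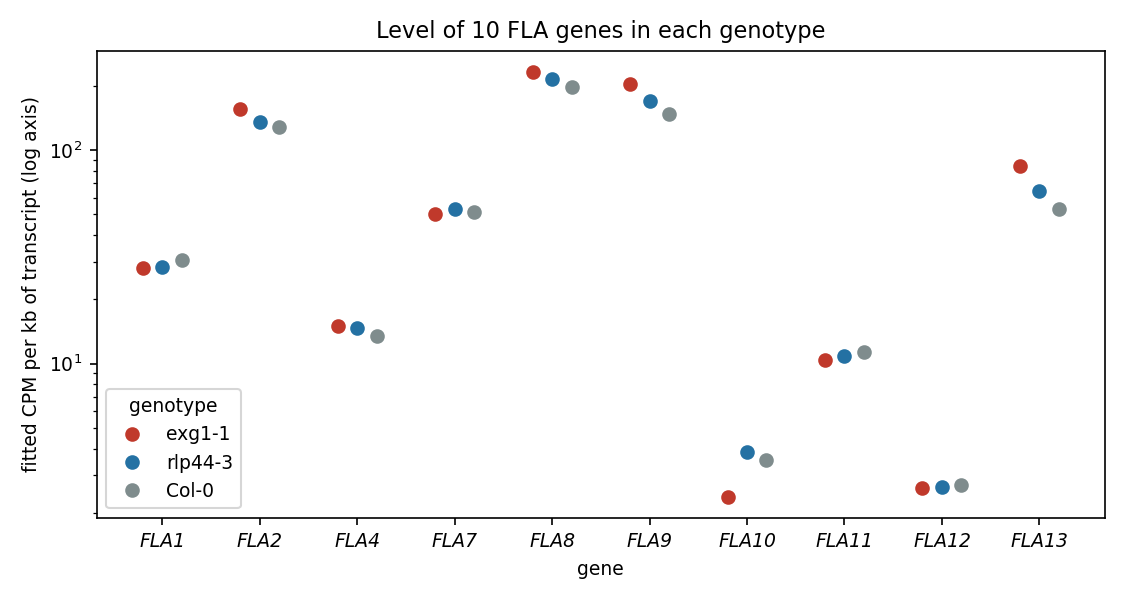
Level of the 10 *FLA* genes in fitted CPM per kilobase of transcript (log axis), with 1 point for each genotype and no error bar because the table holds 1 value per gene and genotype. *FLA8*, *FLA9* and *FLA2* lie highest and *FLA10* and *FLA12* lowest in every genotype, and the points of *FLA13* and *FLA9* run downward from *exg1-1* to Col-0.

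*FLA8*, also known as *AGP8*, was the most abundant of the 10 genes per kilobase of transcript, at 233 CPM per kb in *exg1-1*, 217 in *rlp44-3* and 198 in Col-0. Its near copy *FLA10* was among the least abundant, at 2.38, 3.83 and 3.54 CPM per kb in *exg1-1*, *rlp44-3* and Col-0. The pair lay apart in *exg1-1*. *FLA10* had 46.6, 56.5 and 58.1 fitted reads in the *exg1-1* libraries, 83.9, 82.9 and 86.8 in the *rlp44-3* libraries, and 64.9, 57.6 and 66.2 in the Col-0 libraries. The *exg1-1* and Col-0 reads overlap, since the *exg1-1* libraries were larger.

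After scaling, *FLA10* stood at 4.64 CPM in *exg1-1*, 7.47 in *rlp44-3* and 6.89 in Col-0. Its log2 fold change over Col-0 was -0.57 in *exg1-1* (-0.89 to -0.26), a fold of 0.673, and only 5.47% of genes lay below it. In *rlp44-3* it was 0.12, with an interval that includes 0 (-0.16 to 0.40). The direct difference between the mutants was -0.69 (-0.99 to -0.40), below which 2.83% of genes lay. *FLA10* rests on 161 fitted reads in *exg1-1*, 254 in *rlp44-3* and 189 in Col-0, which makes its interval one of the widest of the 10.

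*FLA8* summed to 14932 fitted reads in *exg1-1*, 13583 in *rlp44-3* and 10005 in Col-0, and its intervals are the narrowest. It was higher than in Col-0 by 0.23 in *exg1-1* (0.20 to 0.27) and by 0.13 in *rlp44-3* (0.09 to 0.17) on the log2 scale. The ratio of *FLA8* to *FLA10* per kilobase was 97.8 in *exg1-1*, 56.5 in *rlp44-3* and 55.9 in Col-0. The ratio was thus alike in *rlp44-3* and Col-0 and higher in *exg1-1*.

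*FLA2* and *FLA1*, a pair of genes for long proteins, lay on opposite sides of Col-0 in *exg1-1*, and also in *rlp44-3* except when scaled to the shoot markers, where both lay below Col-0. *FLA2* stood at 288 CPM in *exg1-1*, 251 in *rlp44-3* and 238 in Col-0. Its log2 fold change over Col-0 was 0.28 in *exg1-1* (0.23 to 0.32) and 0.08 in *rlp44-3* (0.03 to 0.12). *FLA1*, known for a part in shoot regeneration from callus, stood at 49.1 CPM in *exg1-1*, 49.7 in *rlp44-3* and 53.7 in Col-0. With the main scaling it was the only member whose interval lay below 0 in both mutants, at -0.13 in *exg1-1* (-0.23 to -0.03) and -0.11 in *rlp44-3* (-0.21 to -0.01). The upper end in *rlp44-3* was -0.0079. Library totals and no filter shift *rlp44-3* over Col-0 by 0.0105 and 0.0108, which takes that interval across 0. Scaled to the root markers, *FLA1* was at -0.0094 in *exg1-1*. Both comparisons use the same Col-0 value. The mutants differed from each other in *FLA1* by -0.02, with an interval that includes 0 (-0.12 to 0.08).

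*FLA4* is *SOS5*, named for its salt-oversensitive mutant with swollen root tips, and genetically it acts with the leucine-rich repeat receptor kinases FEI1 and FEI2. *FLA4* stood at 28.7 CPM in *exg1-1*, 28.0 in *rlp44-3* and 25.7 in Col-0. The log2 fold change over Col-0 was 0.16 in *exg1-1* (0.02 to 0.30) and 0.13 in *rlp44-3*, where the interval includes 0 (-0.02 to 0.27). *FEI1* stood at 152 CPM in *exg1-1*, 128 in *rlp44-3* and 134 in Col-0, with log2 fold changes over Col-0 of 0.18 in *exg1-1* (0.12 to 0.24) and -0.06 in *rlp44-3*, with an interval from -0.13 to just under 0. *FEI2* was at -0.05 in *exg1-1* and -0.09 in *rlp44-3*, both with intervals that include 0. None of the 3 genes reached a log2 difference of 0.32 in either mutant, the threshold used for the counts given here. Of all genes, 9.23% were higher and 13.1% lower by at least that much in *exg1-1*, and 6.2% and 8.2% in *rlp44-3*.

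*FLA11* and *FLA12* are known from stems, where they accompany secondary wall cellulose and affect stem strength. They were at low levels in these seedlings and close to Col-0 in both mutants. *FLA11* stood at 9.42 CPM in *exg1-1*, 9.86 in *rlp44-3* and 10.3 in Col-0. *FLA12* stood at 3.58, 3.62 and 3.70 CPM in *exg1-1*, *rlp44-3* and Col-0. All 6 intervals of the pair against each other genotype include 0, and the widest, that of *FLA12* in *rlp44-3* against Col-0, spans -0.42 to 0.37, so a difference below about that size was not detectable at this depth. *FLA11* overlaps *P58IPK* (AT5G03160) on the opposite strand. *P58IPK* summed to 1054 fitted reads in *exg1-1*, 886 in *rlp44-3* and 659 in Col-0. The library kit marks strand, but use of the strand in counting is not stated in the labels or methods, and the *FLA11* values are uncertain.

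The catalytic subunits of secondary wall cellulose synthase are *CESA4*, *CESA7* and *CESA8*. In *exg1-1* they were at log2 fold changes of 0.31, 0.05 and 0.22 over Col-0. In *rlp44-3* they were at -0.19, -0.33 and -0.11. Of the 11 secondary wall genes that passed the filter, out of 13 listed, 10 were lower in *rlp44-3* than in Col-0. Of all genes, 49.9% were higher there. By at least 0.32 on the log2 scale 5 of the 11 were lower in *rlp44-3* (8.2% of all genes were). Their median was -0.29, while the median of all genes was close to 0. In *exg1-1* 6 of 11 were lower than in Col-0, with a median of -0.13, and 49.2% of all genes were higher. Lower by at least 0.32 in *exg1-1* were 2, *IRX8* and *IRX9* (13.1% of all genes were). *IRX8*, a gene of pectin and xylan synthesis, was past 1.5-fold lower at -0.61 (-1.09 to -0.11). Between the mutants 9 of the 11 were higher in *exg1-1* (50.2% of all genes were). Of these, 6 were higher by at least 0.32 (9.13% of all genes were), and the median of the 11 was 0.33. *FLA11*, at -0.13 in *exg1-1* and -0.07 in *rlp44-3* over Col-0, and *FLA12*, at -0.04 in *exg1-1* and -0.03 in *rlp44-3*, lay nearer to 0 than the list median in *rlp44-3*.

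*FLA7*, a gene for one of the short proteins, stood at 73.0 CPM in *exg1-1*, 77.5 in *rlp44-3* and 75.1 in Col-0. Its log2 fold changes over Col-0 were -0.04 in *exg1-1* (-0.13 to 0.04) and 0.04 in *rlp44-3* (-0.04 to 0.13). Between the mutants the difference was -0.09 (-0.16 to -0.01).

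**Figure D2:**
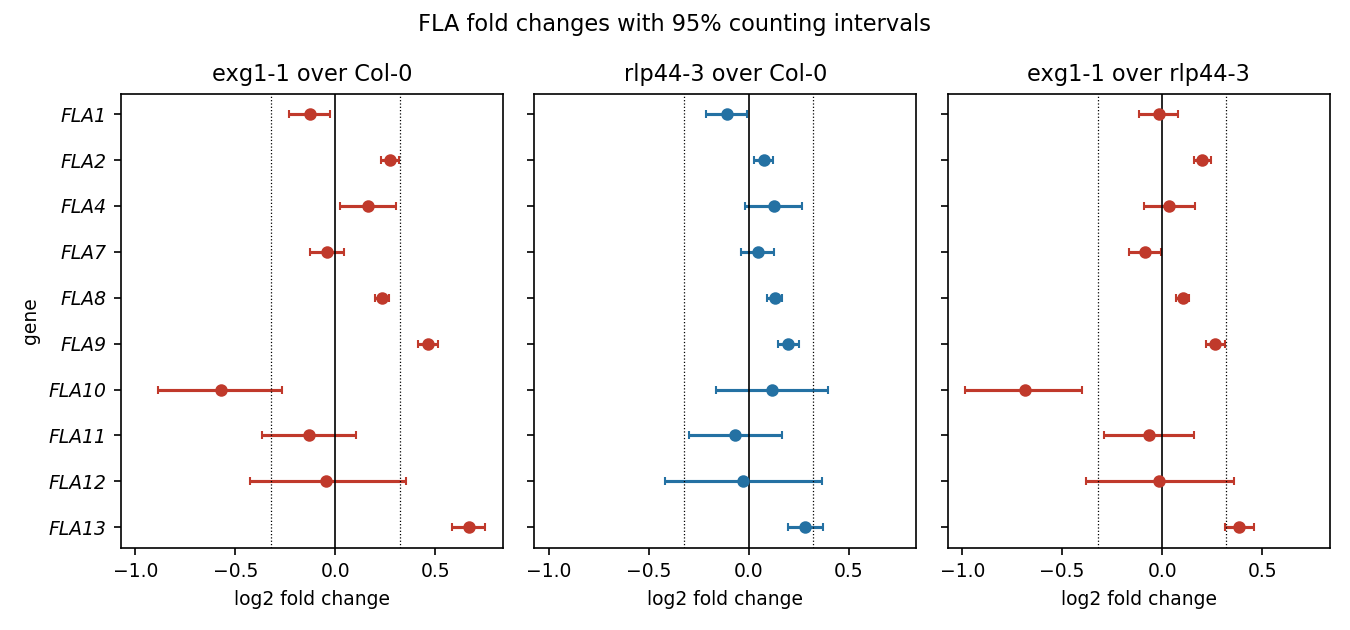
Log2 fold change of each *FLA* gene (points) with its 95% counting interval (bars), in 1 panel for each pair of genotypes, where dotted lines mark a log2 difference of 0.32 either way. In *exg1-1* over Col-0 *FLA13* (0.67) and *FLA9* (0.46) lie beyond the right line and *FLA10* (-0.57) beyond the left one, while in *rlp44-3* over Col-0 every point lies between the lines.

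Of the 10 genes, only *FLA9*, *FLA13* and *FLA10* differed from Col-0 by at least 0.32 on the log2 scale, all in *exg1-1*. By counting error alone more members differed, as given below. In *exg1-1* against Col-0, 5 of 10 were higher at all, where 49.2% of all genes were. Higher by at least 0.32 on the log2 scale were 2, *FLA9* and *FLA13*, against 9.23% of genes, and lower by as much was 1, *FLA10*, against 13.1% of genes. *FLA13* alone was past 1.5-fold in either direction (8.31% of genes) and none was past 2-fold (2.57% of genes). The median over the 10 was 0.06, and over all genes it was close to 0. Among genes with at least 1000 Col-0 reads, which *FLA1*, *FLA2*, *FLA7*, *FLA8*, *FLA9* and *FLA13* are, 2 of 6 were higher by at least 0.32, where 7.28% of 4778 genes were.

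In *rlp44-3* against Col-0, 7 of 10 were higher at all, where 49.9% of genes were. None was higher by 0.32 (6.2% of genes) or lower by as much (8.2%), and thus none passed 1.5-fold (5.22%) or 2-fold (1.68%). The median was 0.10, and over all genes it was close to 0. In *exg1-1* against *rlp44-3*, 5 of 10 were higher in *exg1-1*, where 50.2% of genes were. *FLA13* was higher by at least 0.32 (9.13% of genes) and *FLA10* lower by at least as much (11.5%). *FLA10* was also past 1.5-fold (6.98%) and none was past 2-fold (2.01%). The median was 0.01, and among the 6 genes with at least 1000 Col-0 reads 1 was higher by at least 0.32, where 6.99% of genes were.

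By counting error alone, the interval lay above 0 for 5 of 10 genes (21.8% of all genes) and below 0 for 2 (19.3%) in *exg1-1* against Col-0. In *rlp44-3* against Col-0 it lay above 0 for 4 (13.6%) and below 0 for 1 (12.8%), and in *exg1-1* against *rlp44-3* above 0 for 4 (21.4%) and below 0 for 2 (19.5%). These shares depend on read depth, and the members above 0 in *exg1-1* were *FLA2*, *FLA4*, *FLA8*, *FLA9* and *FLA13*, with at least 703 Col-0 reads each. Summed over the 10 genes, the level was 786 CPM per kb in *exg1-1*, 700 in *rlp44-3* and 641 in Col-0. Without division by length the sum was 1228 CPM in *exg1-1*, 1104 in *rlp44-3* and 1016 in Col-0. *FLA2*, *FLA8* and *FLA9* held 77.9% of that sum in *exg1-1*, 76.9% in *rlp44-3* and 76.4% in Col-0, so it mainly follows those 3 genes.

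**Figure D3:**
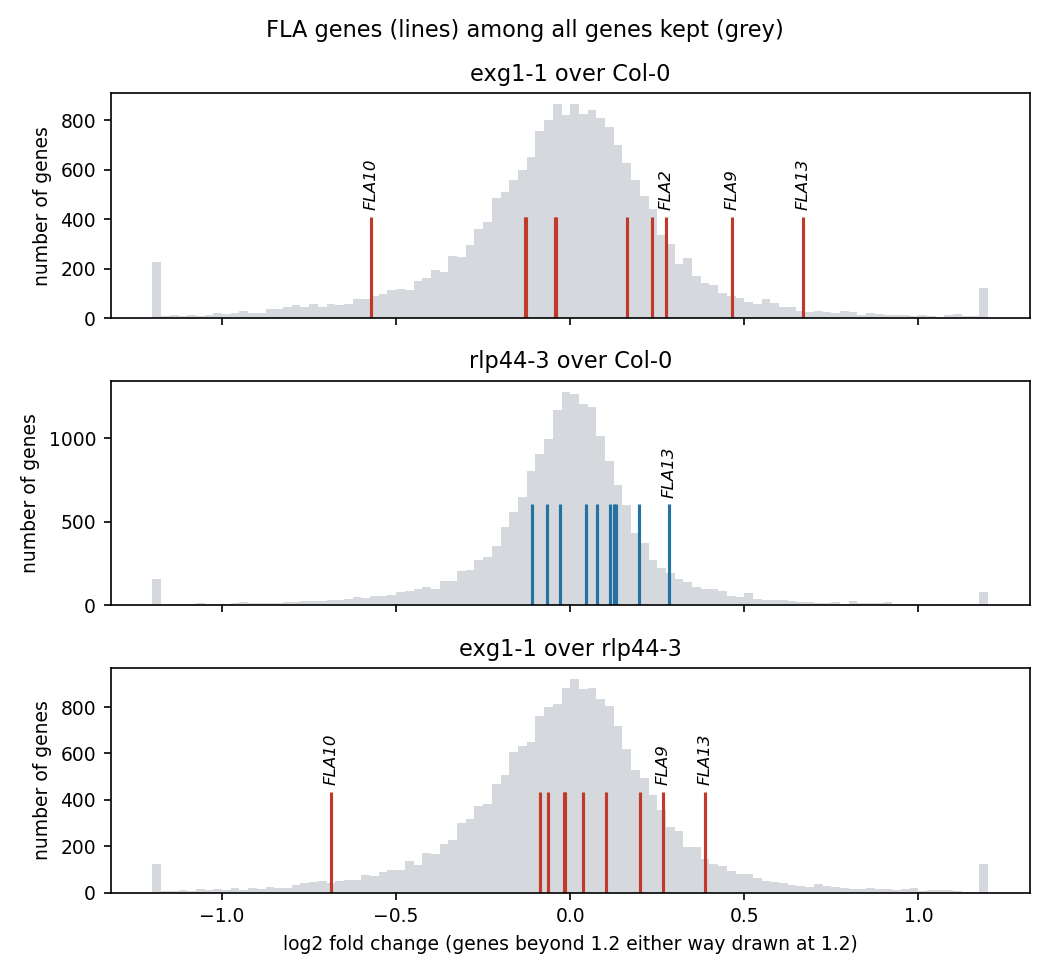
Number of genes by log2 fold change in bins for the 19454 genes that passed the filter (grey), with the 10 *FLA* genes as coloured lines and names on those beyond 0.25 either way. *FLA13* and *FLA10* lie in the tails in both panels with *exg1-1*, and in *rlp44-3* over Col-0 only *FLA13* (0.28) carries a name.

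These seedlings hold shoot and root, and a larger share of an organ cannot be told apart from more RNA of a gene per cell. The summed level of the shoot markers was 36829 CPM in *exg1-1*, 36107 in *rlp44-3* and 33523 in Col-0. Of the 6 markers, 6 were higher in *exg1-1* (49.2% of all genes were) and 5 in *rlp44-3* (49.9%). None differed by 0.32 on the log2 scale, and the medians were 0.11 in *exg1-1* and 0.12 in *rlp44-3*. The summed level of the root markers was 2614 CPM in *exg1-1*, 2975 in *rlp44-3* and 2838 in Col-0. Lower in each mutant were 4 of 5, where 49.2% of all genes were higher in *exg1-1* and 49.9% in *rlp44-3*. In *exg1-1* 3 of the 5 were lower by at least 0.32 on the log2 scale (13.1% of all genes were), with a median of -0.38. In *rlp44-3* 1 of the 5 was (8.2% of all genes), with a median of -0.04. *PYK10* made up 97.6% of the root marker sum in *exg1-1*, 97.7% in *rlp44-3* and 97.5% in Col-0. It alone was higher in *rlp44-3* than in Col-0 among the 5 (log2 0.07). Without it the sum was 61.8 CPM in *exg1-1*, 67.0 in *rlp44-3* and 69.6 in Col-0. The part of organ share in the *FLA* differences was not tested. With the genotypes scaled to the shoot marker sum, *FLA13* and *FLA9* remained higher in *exg1-1* than in Col-0, at log2 fold changes of 0.53 and 0.33. In *rlp44-3* under the same scaling *FLA2* (-0.03) and *FLA7* (-0.06) were below Col-0, as was *FLA7* (-0.02) scaled to the root marker sum. With root marker scaling *FLA7* (0.08) and *FLA12* (0.07) were above Col-0 in *exg1-1*.

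Of the other 11 genes named *FLA*, *FLA15*, *FLA16*, *FLA17* and *FLA18* passed the filter. *FLA18* stood at 138 CPM in *exg1-1*, 112 in *rlp44-3* and 103 in Col-0, with log2 fold changes over Col-0 of 0.42 in *exg1-1* and 0.12 in *rlp44-3*. *FLA15* stood at 19.3 CPM in *exg1-1*, 23.2 in *rlp44-3* and 27.1 in Col-0, with -0.48 in *exg1-1* and -0.22 in *rlp44-3*. *FLA16* was at -0.09 in *exg1-1* and -0.01 in *rlp44-3*, and *FLA17* at 0.07 in *exg1-1* and 0.10 in *rlp44-3*. These 4 are described after their values were seen. Another 4 genes (*FLA5*, *FLA6*, *FLA19* and *FLA20*) were below the filter, and for *FLA3*, *FLA14* and *FLA21* no value was analysed.

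The classical arabinogalactan proteins lack fasciclin domains and consist largely of the glycosylated stretch. Of 11 that passed the filter, 2 were above Col-0 (9.23% of all genes) and 3 below it (13.1%) by at least 0.32 in *exg1-1*, with a median of -0.09. In *rlp44-3* 3 were above it by that much (6.2% of all genes) and 0 below it (8.2%), with a median of 0.02. *AGP3* was past 1.5-fold lower in *exg1-1*, at 3.49 CPM against 5.56 CPM in Col-0 (log2 -0.67, -1.03 to -0.32). *AGP5* was past 1.5-fold higher in *rlp44-3*, at 33.1 summed reads against 12.0 in Col-0 (log2 1.15, 0.16 to 2.24). It rests on few reads and passed the filter through *rlp44-3* only, so its place among the 3 higher genes was set in part by the filter. *AGP17*, a lysine-rich form known from the uptake of *Agrobacterium* DNA and chosen here after its values were seen, was on opposite sides of Col-0, at 0.49 in *exg1-1* and -0.31 in *rlp44-3*.

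The arabinogalactan peptides are the shortest relatives. Of 10 that passed the filter, 1 was above Col-0 (9.23% of all genes) and 4 below it (13.1%) by at least 0.32 in *exg1-1*, with a median of -0.13. In *rlp44-3* 0 were above Col-0 (6.2% of all genes) and 0 below it (8.2%) by that much, with a median of -0.08. A further 14 genes that passed the filter code for enzymes that hydroxylate proline or build the arabinogalactan chains. In *exg1-1* 0 of these were above Col-0 (9.23% of all genes) and 0 below it (13.1%) by at least 0.32, with a median of -0.06. In *rlp44-3* 0 were above Col-0 (6.2%) and 1 below it (8.2%) by at least that much, with a median of -0.04.

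**Figure D4:**
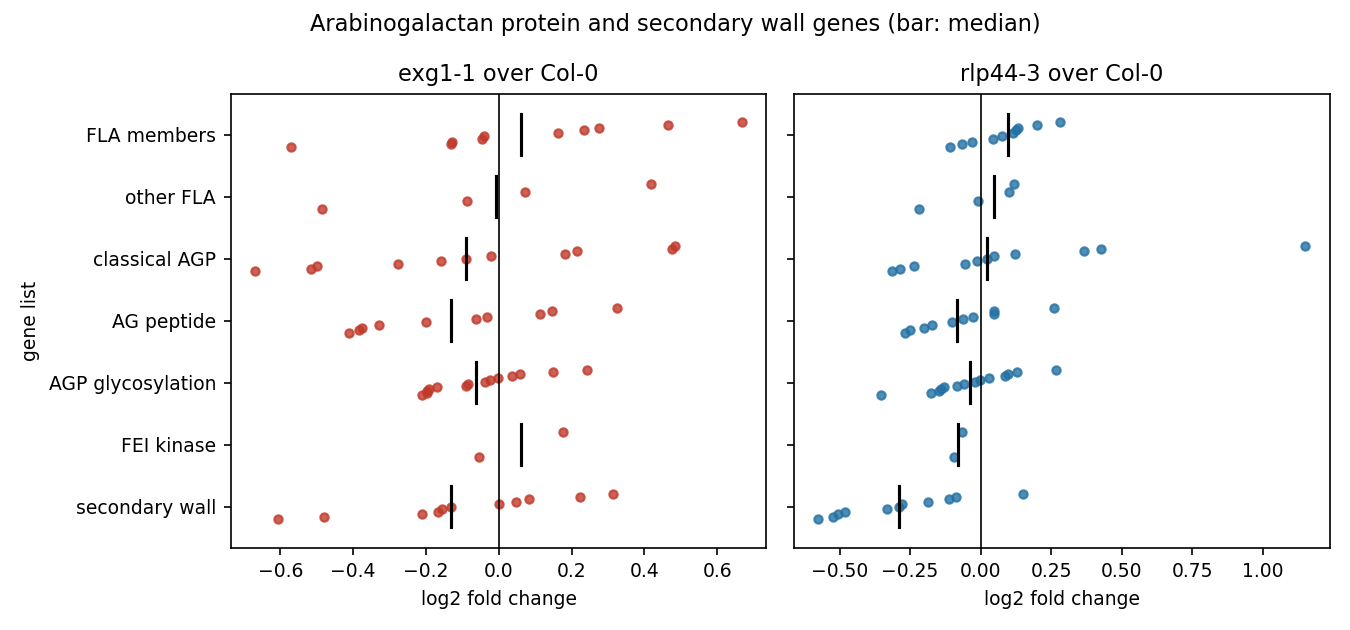
Log2 fold change over Col-0 of single genes (points) in the 10 *FLA* members and 6 related lists, with the median of each list as a black bar, in *exg1-1* (left) and *rlp44-3* (right), on x axes of different range. The *FLA* members span -0.57 to 0.67 in *exg1-1* and -0.11 to 0.28 in *rlp44-3*, and the secondary wall genes lie mostly left of 0 in *rlp44-3*.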

How the data were processed

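Libraries from 9 whole-seedling samples (3 genotypes, 3 libraries each) were used, which the study's design calls biological replicates. Per the labels, the authors processed reads with fastp, HISAT2, HTSeq and DESeq2 on TAIR10, with their versions not given in the sources used here. Values as deposited are of a unit other than counts, namely fitted reads per gene and library in fixed proportion within a genotype. The count tests planned were therefore not run, and reads were summed over the 3 libraries of a genotype. A further 3 columns of values were not used. Of 33341 rows, 25717 held values. Genes at 0.908 CPM or more (10 reads in a library of median size) in all 3 libraries of any genotype, and with 15 reads in all, were kept.

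Scaling between genotypes followed the trimmed mean of log ratios (30% of ratios and 5% of levels trimmed), computed with numpy 2.4.6, pandas 2.3.3 and scipy 1.17.1 under Python 3.11.15 and tested on simulated data. Levels are CPM of the Col-0 total, and per kb they are divided by the length of the RefSeq transcript with the longest coding sequence. Gene models, proteins and upstream bases came from RefSeq TAIR10.1, whose nuclear chromosomes are those of TAIR10. Proteins were aligned with Biopython 1.88. Figures were drawn with matplotlib 3.10.9.

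Named genes were all 10 members, *EXG1*, *RLP44*, the *FEI* and *CESA* genes and, in each related list, up to 4 genes past 1.5-fold in either mutant. Members and lists were chosen with earlier results of these data known. Alternatives were other scalings, filters and folds.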

Additional observations from a re-analysis of the deposited data

How the results depend on the processing

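The scaling alternatives (median of log ratios, upper quartile, library totals, organelle genes left out) and the filters (none, 10 reads in every library) kept the sign of all 10 genes in both mutants against Col-0. Across them *FLA13* ranged between 0.62 and 0.69, *FLA9* between 0.41 and 0.49 and *FLA10* between -0.62 and -0.55 in *exg1-1* against Col-0. Between the mutants *FLA4* (0.04) was at -0.0032 under the upper quartile and -0.0245 under library totals, and *FLA12* (-0.01) at 0.0003 with no filter.

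With 1.5-fold as the threshold in place of 0.32 on the log2 scale, *exg1-1* against Col-0 had 1 higher and 0 lower member and *exg1-1* against *rlp44-3* had 0 higher. At 2-fold all these counts were 0, as was the lower one against *rlp44-3*. The other alternatives were chosen after seeing the data. The *exg1-1* median over Col-0 (0.06) was 0.16 without *FLA10* and -0.0429 without *FLA9* and *FLA13*. Scaling to the summed shoot markers shifted all genes by -0.14 in *exg1-1* and -0.11 in *rlp44-3* and put the medians over Col-0 at -0.0753 in *exg1-1* and -0.0113 in *rlp44-3*. Scaling to the root markers, in effect to *PYK10*, shifted *exg1-1* by 0.12 over Col-0 and 0.19 over *rlp44-3*, with medians of 0.18 and 0.20 and with 4 and 3 members higher by at least 0.32 (17.95% and 26.3% of all genes were), and *FLA1* (0.17), *FLA7* (0.10), *FLA11* (0.12) and *FLA12* (0.17) were then above *rlp44-3*. Of all genes that differed by at least 0.32, 41.2% were higher in *exg1-1* than in Col-0, against 30.8% under library totals, 17.2% under shoot and 68.1% under root marker scaling. Over *rlp44-3* it was 44.2%, against 30.2% under library totals and 83.2% under root marker scaling, and for *rlp44-3* over Col-0 43.0%, against 21.5% and 28.5% under shoot and root marker scaling.

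No paired analysis was possible because the columns of a genotype are multiples of 1 set of fitted values, and for the same reason leaving out single libraries and other count tools were not run. Genes with few reads limit the precision: *FLA12* rests on 125 reads in *exg1-1*, 123 in *rlp44-3* and 101 in Col-0.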
